A study of Homo sapiens with 26 samples.

Results

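The annexin family was followed in human small cell lung cancer cell lines, as 10 genes taken by symbol: ANXA1, ANXA2, ANXA3, ANXA4, ANXA5, ANXA6, ANXA7, ANXA10, ANXA11 and ANXA13. They were 10 of 19128 genes in the knockout tables and 10 of 19117 in the table of parental lines. RNA came from 26 polyA libraries. Of these, 12 belonged to a knockout experiment in 4 lines (NCI-H211, NCI-H1048, COR-L311 and NCI-H526) that express the transcription factor POU2F3. In each line 1 library carried the control guide RNA (sgNeg) and 2 carried different guides against POU2F3 (sgPOU2F3), all delivered by lentivirus. NCI-H211 and NCI-H1048 were harvested on day 4 after infection and COR-L311 and NCI-H526 on day 5. The other 14 libraries came from parental cells in exponential growth with no guide, 1 library per line: the 4 knockout lines, and DMS114, DMS79, NCI-H128, NCI-H146, NCI-H446, NCI-H510, NCI-H524, NCI-H69, NCI-H82 and NCI-H889. NCI-H1048 was grown in HITES, a defined medium, and most other lines in RPMI with serum or HITES. Values were FPKM, that is fragments scaled by transcript length in kilobases and by M of mapped fragments (M, mega), as the authors computed them. The deposited knockout tables hold 1 sgNeg value and 1 value for both POU2F3 guides together in each line, so a value for 1 line has no error of its own. The line is therefore the replicate (n = 4 lines), and each line is a single culture of 1 established cell line.

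Annexins are cytosolic proteins that bind acidic phospholipids when calcium rises, through a conserved core of repeated domains. They gather at the inner face of the plasma membrane and on vesicles, where they are known for roles in membrane repair, secretion and endocytosis. Some are carried to the cell surface, and several pair with small EF-hand proteins such as the S100 proteins, which bind their variable amino-terminal tails.

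The knockout lines were checked by POU2F3 and by marker lists. POU2F3 RNA was lower with the POU2F3 guides in 4 of 4 lines, at 6.95% of the control in NCI-H211, 30.7% in NCI-H1048, 40.7% in NCI-H526 and 80.4% in COR-L311; RNA does not measure the protein. The summed FPKM of 9 tuft cell markers (tuft cells are chemosensory epithelial cells) was lower in each line, from 1931 to 174, 579 to 222, 1607 to 782 and 1645 to 852 in the same order. The summed FPKM of 8 YAP and mesenchymal markers went from 20.9 to 1147 in NCI-H211, 901 to 2735 in NCI-H1048, 27.6 to 79.5 in COR-L311 and 6.86 to 5.61 in NCI-H526. NCI-H211 thus stood apart from the other lines in both lists. The summed FPKM of 8 neuroendocrine markers was lower in the day 4 lines, from 63.9 to 17.4 in NCI-H211 and 51.5 to 33.6 in NCI-H1048. In the day 5 lines it was higher, from 414 to 814 in COR-L311 and 351 to 429 in NCI-H526. The summed fibroblast markers were between 0.129 and 16.8 in the 8 columns, and the blood and endothelial markers between 1.47 and 7.33. Depth estimated from the steps between low values was 10.3 to 16.6 M fragments in the sgNeg columns, 20.0 to 33.4 M in the combined sgPOU2F3 columns and 10.7 to 34.5 M in the parental columns. Genes at 0 made up 18.3% to 21.5% of the sgNeg columns and 13.8% to 15.9% of the combined ones, which makes values just above 0 more frequent with the POU2F3 guides.

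For 3 members the window of 250 bases before the RefSeq transcription start (build GRCh38.p14) is shown, because ANXA1 and ANXA4 were lower in every knockout line and ANXA2 was the member whose direction differed most between lines. ANXA1 lies on the plus strand of chromosome 9 (73151615 to 73151864), ANXA2 on the minus strand of chromosome 15 (60397987 to 60398236) and ANXA4 on the plus strand of chromosome 2 (69643558 to 69643807, the first of its 2 windows). Capitals mark matches to any of 4 motifs searched on both strands: the POU octamer ATGCAAAT, the TEAD core GGAATG, the AP-1 site TGANTCA and the TATA box TATAAA.
ANXA1: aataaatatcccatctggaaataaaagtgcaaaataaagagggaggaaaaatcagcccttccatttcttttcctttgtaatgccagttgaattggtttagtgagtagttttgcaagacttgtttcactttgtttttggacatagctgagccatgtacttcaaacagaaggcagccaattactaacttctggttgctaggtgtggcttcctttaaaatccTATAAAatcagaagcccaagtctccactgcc
ANXA2: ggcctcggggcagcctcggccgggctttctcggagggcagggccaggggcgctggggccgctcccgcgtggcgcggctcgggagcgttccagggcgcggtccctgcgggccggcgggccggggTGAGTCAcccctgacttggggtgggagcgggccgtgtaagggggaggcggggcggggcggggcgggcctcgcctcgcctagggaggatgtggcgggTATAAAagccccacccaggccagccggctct
ANXA4: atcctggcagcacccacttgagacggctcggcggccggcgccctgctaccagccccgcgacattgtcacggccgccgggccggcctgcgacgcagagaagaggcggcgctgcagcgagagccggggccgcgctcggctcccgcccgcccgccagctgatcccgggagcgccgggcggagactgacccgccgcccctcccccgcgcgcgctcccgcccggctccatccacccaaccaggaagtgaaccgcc
ANXA1 had a TATA box match starting 31 bases before the start, a GC content of 38.4% and 0 CpG dinucleotides. ANXA2 had a TATA box match at the same distance of 31 bases, an AP-1 match 127 bases before the start, a GC content of 78.0% and 28 CpG. ANXA4 held none of the motifs, with a GC content of 77.2% and 36 CpG. Over all 35116 windows of this length the median GC content was 58.0% and the median CpG count 11, and 6.1% of windows held 0 CpG. A match was found in 1.63% of all windows for the POU octamer, 11.9% for the TEAD core, 6.57% for AP-1 and 10.7% for the TATA box. Windows were read for 9 of the 10 members, 13 windows in all, and none of them held the POU octamer or the TEAD core. A missing match says only that these letters are not in this window.

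The first comparison asked which annexins differed after POU2F3 knockout. With limma on log2(FPKM + 1), 0 of the 8 members tested passed a Benjamini-Hochberg adjusted p of 0.05, where 2 of 12387 genes (0.0161%) did. At an unadjusted p under 0.05, 3 of 8 members were found, ANXA1, ANXA4 and ANXA5, against 11.8% of all genes. ANXA1 and ANXA4 were lower in all 4 lines, as were 12.9% of all genes, and ANXA5 was higher in all 4 lines, as were 9.81%. ANXA10 and ANXA13 did not reach 1 FPKM in 4 of the 8 columns and were not tested. The median of the 8 mean log2 ratios was 0.28, beside -0.02 over all genes tested, and without NCI-H211 it was -0.06. In bulk RNA, fewer cells of a type and less RNA per cell cannot be told apart.

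ANXA1, a glucocorticoid-induced protein that acts on formyl peptide receptors once released, had the smallest p among the members. Its FPKM went from 4.20 to 2.98 in COR-L311, 1041 to 603 in NCI-H1048, 253 to 125 in NCI-H211 and 17.0 to 9.55 in NCI-H526. Each line had less with the POU2F3 guides, although the lines themselves lay far apart in level and kept the same order in both arms. The log2 ratios were -0.39, -0.79, -1.01 and -0.77, with a mean of -0.74 ± 0.26 (SD, n = 4 lines; limma adjusted p = 0.31). By unadjusted p it stood 25th of 12387 genes (limma p = 0.00072). The mean stayed between -0.86 and -0.65 when any 1 line was left out.

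ANXA4, a membrane-binding annexin found in many epithelia, was lower in the same 4 lines. Its FPKM went from 7.73 to 4.67 in COR-L311, 22.2 to 14.4 in NCI-H1048, 127 to 37.6 in NCI-H211 and 79.3 to 48.3 in NCI-H526. NCI-H211 kept 29.6% of its control value and the other lines between 60.4% and 64.8%. The log2 ratios were -0.62, -0.59, -1.73 and -0.70, with a mean of -0.91 ± 0.55 (SD, n = 4 lines; limma adjusted p = 0.38). Without NCI-H211 the mean was -0.64. NCI-H211 was also the line with the least POU2F3 RNA left and the lowest summed tuft markers relative to its control; the part of either in this value was not tested.

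ANXA5, which binds phosphatidylserine on dying cells and is used to stain them, was higher in each line. In COR-L311 it went from 3.601 to 6.22 FPKM, and from 85.3 to 99.4 in NCI-H1048, 16.8 to 31.6 in NCI-H211 and 26.3 to 29.6 in NCI-H526. The log2 ratios were 0.65, 0.22, 0.88 and 0.16, with a mean of 0.48 ± 0.34 (SD, n = 4 lines; limma adjusted p = 0.40). The ratio was largest in NCI-H211 and COR-L311, one line from each harvest day.

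**Figure D1:**
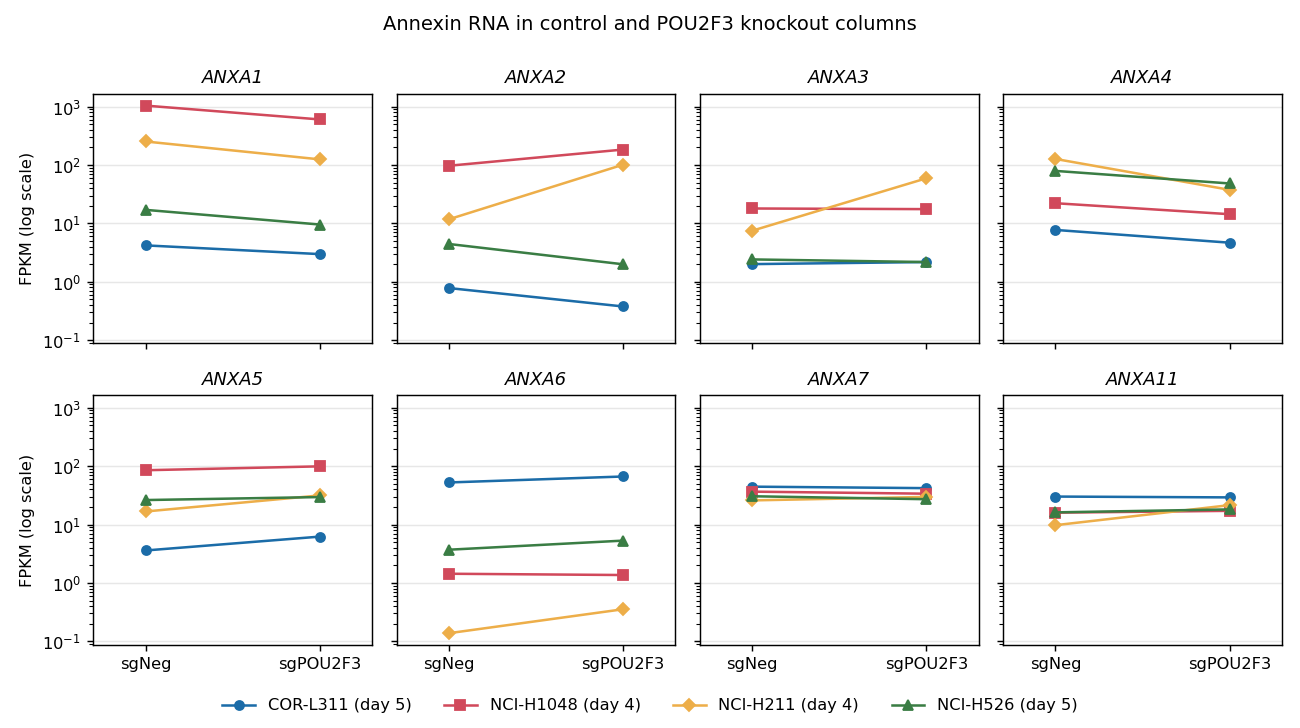
FPKM (log scale) of the 8 tested annexins in the sgNeg and sgPOU2F3 columns, 1 value per line and arm, joined by line. ANXA1 and ANXA4 slope down in all 4 lines, while the ANXA2 and ANXA3 lines of NCI-H211 reach 101 and 59.2 FPKM.

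ANXA2, the annexin that pairs with S100A10 and binds plasminogen at the cell surface, was higher in 2 lines and lower in the other 2. In NCI-H1048 it went from 97.1 to 184 FPKM and in NCI-H211 from 11.8 to 101, the lines harvested on day 4. In the day 5 lines it went the other way, in COR-L311 from 0.780 to 0.377 and in NCI-H526 from 4.44 to 1.99. The 4 log2 ratios of 0.91, 3.004, -0.37 and -0.86 gave a mean of 0.67 ± 1.73 (SD, n = 4 lines; limma adjusted p = 0.67), and -0.11 without NCI-H211. Of all genes tested, 6.37% were higher in both day 4 lines and lower in both day 5 lines, and ANXA2 was the 1 member among them. COR-L311 values are near the limit of detection: 1 fragment per kilobase of transcript was worth 0.0817 FPKM in its sgNeg column and 0.0427 FPKM in its combined column. ANXA2 also has processed pseudogenes, and the sources used here do not say how reads shared with them were counted.

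The difference between the harvest days was tested directly on the 4 ratios, day 5 minus day 4. For ANXA2 it was -2.58 on the log2 scale (SE 0.65; limma p = 0.0071, adjusted p = 0.83). No member passed the threshold and 0% of genes did, while 5.51% of genes had an unadjusted limma p under 0.05, ANXA2 being the 1 member. Without NCI-H1048, the difference was -3.62 for ANXA2 and -2.84 for ANXA3. That fit leaves NCI-H211 alone for day 4 and assumes that it varies like the day 5 lines, so no call is drawn from it. The day and the line cannot be told apart, since each line was harvested on 1 day.

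ANXA3, an annexin known from neutrophils and several epithelia, reached a 2-fold ratio in NCI-H211 and in no other line, a difference of size with no test. Its FPKM went from 7.49 to 59.2 there, a log2 ratio of 2.83. In the other lines it went from 2.01 to 2.17 in COR-L311, 18.0 to 17.5 in NCI-H1048 and 2.41 to 2.18 in NCI-H526, log2 ratios of 0.08, -0.03 and -0.10. The mean over the lines was 0.69 ± 1.43 (SD, n = 4 lines; limma adjusted p = 0.60), and -0.02 without NCI-H211.

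ANXA11, which binds PDCD6 and tethers RNA granules to lysosomes, had its largest ratio in the same line. In NCI-H211 it went from 9.76 to 21.5 FPKM, a log2 ratio of 1.07. The other lines went from 30.2 to 29.2, 15.99 to 17.2 and 16.2 to 18.2 FPKM in COR-L311, NCI-H1048 and NCI-H526. The mean log2 ratio was 0.32 ± 0.50 (SD, n = 4 lines; limma adjusted p = 0.55), and 0.07 without NCI-H211. ANXA6, an annexin with a longer core than the others, went from 52.6 to 66.6 FPKM in COR-L311, 1.44 to 1.37 in NCI-H1048, 0.138 to 0.354 in NCI-H211 and 3.71 to 5.31 in NCI-H526, with a mean of 0.24 ± 0.20 (SD, n = 4 lines; limma adjusted p = 0.51). ANXA7, a partner of sorcin (SRI), was the most even member: its 8 values lay between 25.9 and 44.6 FPKM, and its mean log2 ratio was -0.04 ± 0.16 (SD, n = 4 lines; limma adjusted p = 0.89), or 0.01 after quantile normalization. ANXA10, an annexin of the stomach, was listed at 0 in 8 of 8 columns. ANXA13, known from intestine and kidney, reached 1.37 FPKM in the NCI-H211 sgNeg column, beside 0.415 with the POU2F3 guides, and no more than 0.201 FPKM in the other lines.

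Taken line by line and by size alone, 5 member and line pairs reached a 2-fold ratio of FPKM + 1, and all of them were in NCI-H211: ANXA1 and ANXA4 lower, and ANXA2, ANXA3 and ANXA11 higher. In NCI-H211, 4.26% of all tested genes reached 2-fold lower and 4.87% 2-fold higher. In COR-L311 the shares of all genes were 1.92% lower and 2.81% higher, in NCI-H1048 0.783% and 0.767%, and in NCI-H526 0.388% and 1.39%, with 0 members in these 3 lines. This rests on the pseudocount of 1: with 0.1 the count was 6, ANXA2 in NCI-H526 being added. On FPKM alone ANXA2 stood at 44.9% of the control in NCI-H526 and 48.3% in COR-L311. ANXA6 in NCI-H211 stood at 257% on FPKM alone, with only 0.138 and 0.354 FPKM in the arms. Over the 8 members the median log2 ratio was 0.56 in NCI-H211, -0.06 in COR-L311, -0.04 in NCI-H1048 and -0.13 in NCI-H526. NCI-H211 was also where YAP1 went from 1.33 to 56.0 FPKM and the summed YAP and mesenchymal markers from 20.9 to 1147, with 5 of 8 at 1 FPKM or more in sgNeg and 7 of 8 with the POU2F3 guides. The part of these markers in the NCI-H211 annexin values was not tested. There the 8 blood and endothelial markers went from 1.47 to 7.33 FPKM in sum, with LYZ going from 0.514 to 6.04, PTPRC from 0 to 0.0626 and HBB at 0 in both. The 7 fibroblast markers went from 10.9 to 16.8 in sum, with LUM going from 0.101 to 12.3, COL3A1 from 0.1998 to 1.96 and DCN from 7.26 to 0.537. Their part in the annexin values was not tested.

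**Figure D2:**
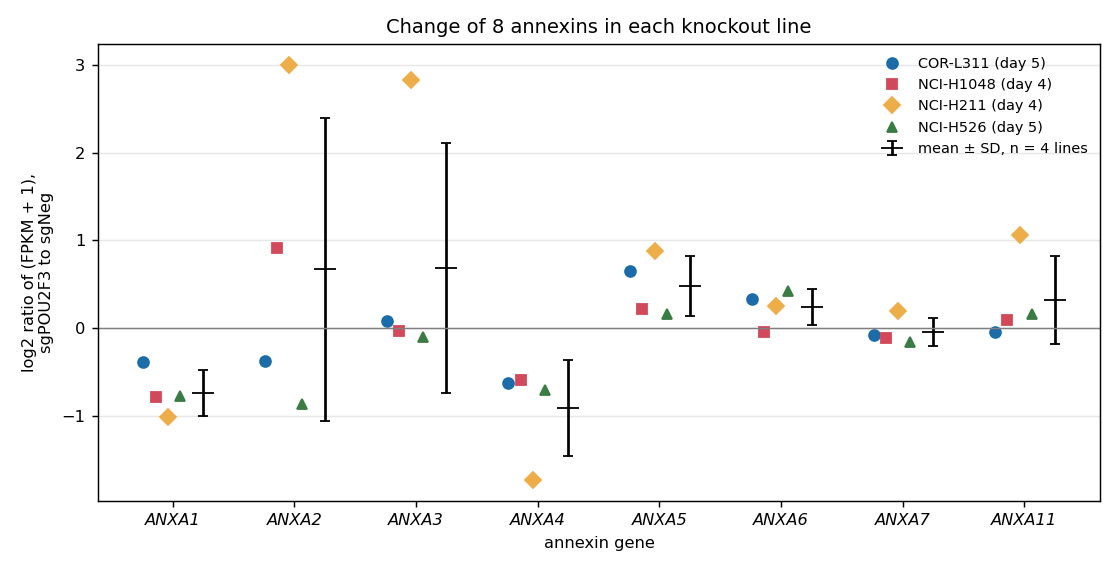
Log2 ratio of FPKM + 1, sgPOU2F3 to sgNeg, for the 8 tested annexins: 1 point per line, with the mean and SD over 4 lines in black. NCI-H211 holds the most extreme point for ANXA1, ANXA2, ANXA3, ANXA4, ANXA5, ANXA7 and ANXA11, and ratios of ANXA1 and ANXA4 are below 0 in every line.

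The make-up of the annexin RNA differed between lines, and FPKM, being per length, allows levels of different members to be set side by side. In the sgNeg columns ANXA1 made up 79.0% of the summed annexin FPKM in NCI-H1048 and 55.8% in NCI-H211. ANXA4 led in NCI-H526 with 44.1%, and ANXA6 in COR-L311 with 36.1%. With the POU2F3 guides the same member led in each line, but its share was smaller in 3 of 4 lines. ANXA1 then held 62.1% in NCI-H1048 and 30.7% in NCI-H211, ANXA4 held 33.9% in NCI-H526 and ANXA6 held 43.1% in COR-L311. In NCI-H211 the share of ANXA2 went from 2.596% to 24.9%, that of ANXA3 from 1.65% to 14.6% and that of ANXA4 from 28.0% to 9.24%. In NCI-H1048 the share of ANXA2 went from 7.37% to 19.0%. The summed annexin FPKM went from 145.8 to 154 in COR-L311, 1318 to 971 in NCI-H1048, 453 to 407 in NCI-H211 and 180 to 143 in NCI-H526. These shares are descriptions with no test.

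**Figure D3:**
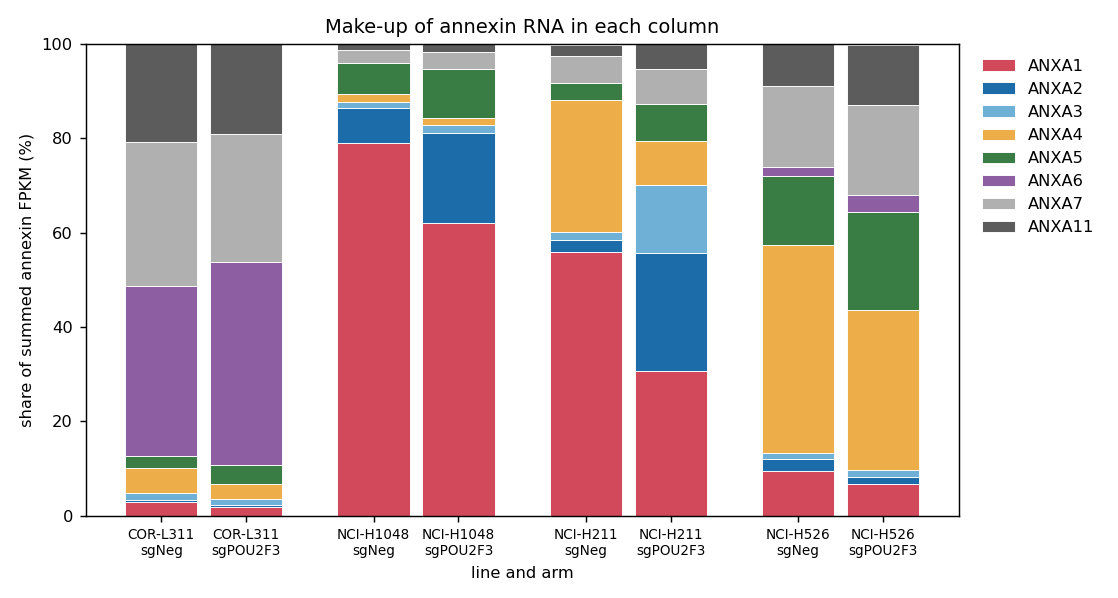
Share of the summed annexin FPKM (%) held by each of 8 members in the 8 knockout columns, each bar 1 line and arm; ANXA10 and ANXA13, at most 0.302% of any bar, are in the sum and not drawn. ANXA1 fills most of the NCI-H1048 bars, and in NCI-H211 ANXA2 and ANXA3 take 24.9% and 14.6% with the POU2F3 guides.

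The second comparison asked how the 4 knockout lines differed from the 10 others before any guide. ANXA4 was the 1 member of 8 tested that passed the threshold, where 33 of 13226 genes (0.25%) did. At an unadjusted limma p under 0.05 there were 3 members, ANXA1, ANXA3 and ANXA4, against 8.66% of genes. No member had its 4 knockout lines all above or all below the 10 others, as 0.65% of genes did. The summed tuft markers were 491 to 1686 FPKM in the 4 lines and 1.55 to 20.4 FPKM in the 10 others, and the summed neuroendocrine markers 35.2 to 517 against 46.0 to 2030.

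ANXA4 stood at 127 FPKM in NCI-H211, 94.2 in NCI-H526, 42.6 in NCI-H1048 and 18.7 in COR-L311. In the 10 other lines it ranged from 0.635 in DMS79 to 23.3 in NCI-H446, with a median of 4.98. Thus 3 of the 4 lines lay above all others, and only NCI-H446 exceeded COR-L311. The log2 difference was 3.41 (SE 0.62; limma adjusted p = 0.027, 4 against 10 lines). The call was lost without NCI-H211 (3.02, adjusted p = 0.10) or NCI-H526 (3.16, adjusted p = 0.12), with a pseudocount of 0.1 (adjusted p = 0.053) and with no filter on low values (adjusted p = 0.055), all by limma; over the lines left out in turn the adjusted p ran from 0.0059 to 0.12.

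ANXA1 was 2498 FPKM in NCI-H1048, 414 in NCI-H211, 19.3 in NCI-H526 and 10.3 in COR-L311. The other lines ran from 0 in NCI-H146 to 73.7 in NCI-H889, with a median of 0.903. The groups overlapped, since NCI-H889 and NCI-H69 (59.4) exceeded COR-L311 and NCI-H526, and the log2 difference of 4.999 (SE 1.43) did not pass (limma adjusted p = 0.23). ANXA3 was 40.9, 23.8, 1.62 and 0.330 FPKM in the 4 lines in the same order, and 0 to 2.70 in the others with a median of 0.339. It was high in NCI-H1048 and NCI-H211 only, and its log2 difference of 2.31 (SE 0.74) did not pass (limma adjusted p = 0.30); without NCI-H1048 it was 1.497.

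ANXA2 was lowest of all 14 lines in COR-L311, at 0.138 FPKM, and the second lowest was NCI-H526, at 2.47. NCI-H211 held 17.3 and NCI-H1048 95.0, against 6.71 to 171 in the other lines with a median of 30.2 (log2 difference -1.93, SE 1.003, limma adjusted p = 0.63). ANXA5 was 131 FPKM in NCI-H1048, 28.7 in NCI-H211, 28.0 in NCI-H526 and 5.83 in COR-L311, against 16.3 to 169 with a median of 65.5 (-1.09, SE 0.63, limma adjusted p = 0.68). ANXA6 ranged in the others from 0.173 in NCI-H69 to 133 in NCI-H446, and in the knockout lines it was 77.1 in COR-L311, 10.6 in NCI-H526, 1.97 in NCI-H1048 and 0.222 in NCI-H211 (-1.57, SE 1.24, limma adjusted p = 0.78). Leaving out NCI-H1048 or COR-L311 moved the ANXA2 difference to -3.06 or -0.93 and the ANXA5 difference to -1.81 or -0.38, and leaving out COR-L311 or NCI-H211 moved that of ANXA6 to -2.69 or -0.69. ANXA7 and ANXA11 were above 1 FPKM in 14 of 14 lines. ANXA7 was 46.1 to 55.8 in the 4 lines and 17.9 to 90.1 in the others (0.10, SE 0.36, limma adjusted p = 0.97), and ANXA11 was 15.1 to 21.1 and 2.61 to 64.2 (-0.14, SE 0.61, limma adjusted p = 0.97). ANXA10 was listed above 0 only in NCI-H69, at 0.0463 FPKM, and ANXA13 above 1 only in NCI-H211, at 1.47.

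**Figure D4:**
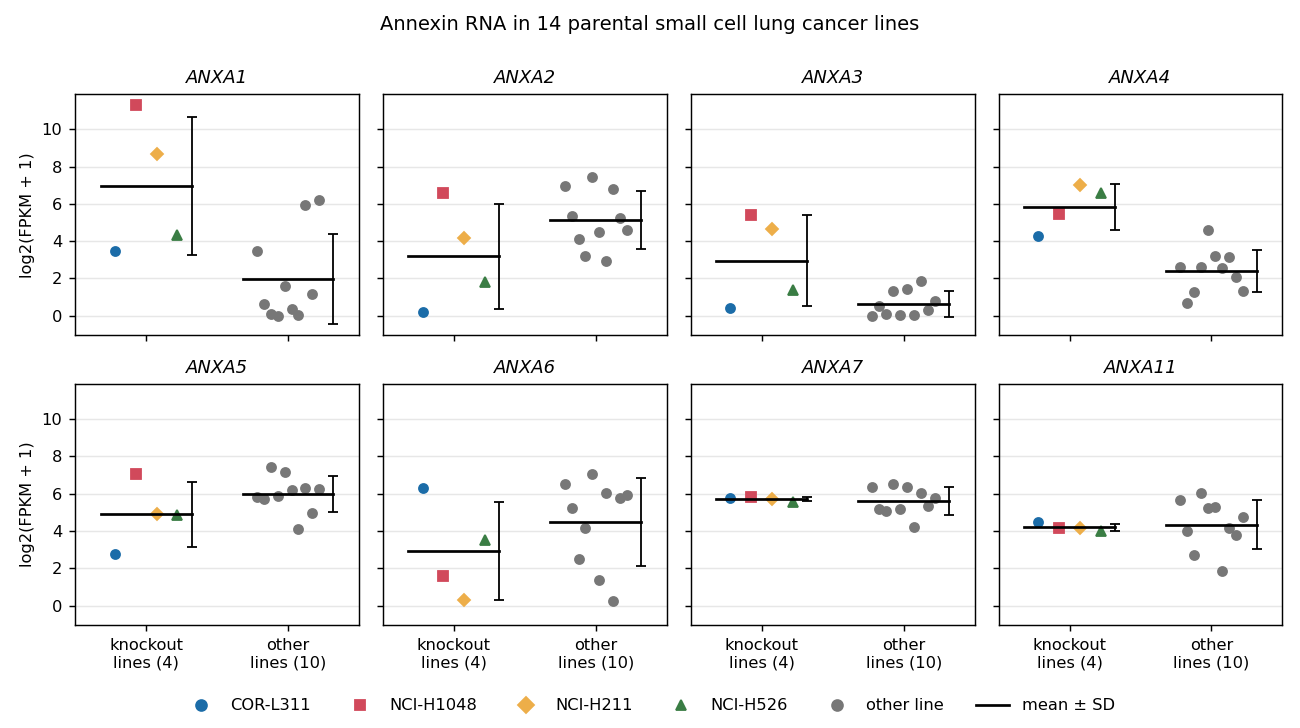
Log2(FPKM + 1) of the 8 tested annexins in 14 parental lines, 1 point per line, in the 4 knockout lines and the 10 others, with the mean and SD of each group. For ANXA4, 3 of the 4 knockout lines lie above the 10 others; for the other members the groups overlap further.

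Different members led in different parental lines. ANXA1 had the highest FPKM of the family in NCI-H1048 and NCI-H211, and ANXA4 in NCI-H526. ANXA6 led in 3 lines (COR-L311, NCI-H524 and NCI-H82), ANXA2 in 3 (DMS114, NCI-H446 and NCI-H69), ANXA5 in 3 (DMS79, NCI-H128 and NCI-H889) and ANXA7 in 2 (NCI-H146 and NCI-H510). DMS114 also carried the highest sums of YAP and mesenchymal markers (2334 FPKM) and fibroblast markers (889.1 FPKM) of the panel, and without it ANXA4 still passed. The largest share held by 1 member was that of ANXA1 in NCI-H1048, at 86.7% of 2883 FPKM.

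Over the 14 parental lines, ANXA7 and ANXA11 followed each other most closely among the 28 member pairs (Pearson r = 0.85, Spearman rho = 0.82), and r was 0.65 without the 2 lines farthest from the median of ANXA7. ANXA1 and ANXA3 had r = 0.82, which was 0.36 without NCI-H1048 and NCI-H211, so it rests on those lines. ANXA3 and ANXA6 had r = -0.72 and rho = -0.82, and r = -0.75 without the same lines. ANXA2 and ANXA5 had r = 0.73, and 0.47 without COR-L311 and NCI-H446. These are descriptions over lines that share a table, with no test.

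Among genes that reached 1 FPKM in 4 or more parental lines, those nearest in pattern to ANXA1 by Pearson r were FOXI1 (0.84), HPGD (0.84) and NUP50 (0.83). For ANXA2 they included RAB23 (0.85) and RIC1 (0.84), and for ANXA3 they were BMP2 (0.95), TRIM58 (0.87) and FBN2 (0.86). By ranks the match was weaker for some of these. Spearman rho was 0.60, 0.85 and 0.68 for the ANXA1 genes and 0.80, 0.37 and 0.51 for the ANXA3 genes, in the order given. ANXA4 was nearest to C4orf19 (0.89), LRMP (0.87) and LAGE3 (0.86), with Spearman rho of 0.76, 0.62 and 0.85. LRMP was 108 to 711 FPKM in the 4 knockout lines and 0 to 12.4 in the others, and in the knockout columns its log2 ratios were -3.39 in NCI-H1048, -2.77 in NCI-H211, -1.28 in NCI-H526 and -0.68 in COR-L311. BMP2 had log2 ratios of -1.54 in NCI-H1048, -2.29 in NCI-H211, 0.18 in COR-L311 and 0.24 in NCI-H526. ANXA3 went the other way in NCI-H211 (2.83) and was at -0.03 in NCI-H1048. Nearest to ANXA5 were B4GALNT1 (0.88), PPP3CC (0.87) and ZNF20 (0.86), and nearest to ANXA6 were PML (0.83), PRR3 (0.80) and RNF114 (0.80). ANXA7 was nearest to CHPF2 (0.91), DNAJC9 (0.86) and PPP1CA (0.86), and ANXA11 to VPS37C (0.88), MEA1 (0.88) and ANXA7 (0.85). Each r is over 14 lines and was the highest among all genes compared, so it is given with no test.

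Proteins that work with annexins were read from 7 lists of 70 genes. In the knockout comparison 0 genes of these lists passed the threshold, beside 0.0161% of all genes. In the parental comparison 1 did, PLA2G4A, beside 0.25% of all genes. The S100 proteins are the best known partners. Of 16 listed, 7 were tested, with a median log2 ratio of 0.89 beside -0.02 over all genes. Of these 7, 4 were higher in 4 of 4 lines, against 9.81% of all genes tested. They were S100A2 (mean log2 ratio 1.22), S100A4 (1.29), S100A6 (0.88) and S100A14 (0.89), with limma adjusted p from 0.34 to 0.40. Several of these are low: S100A2 did not exceed 3.07 FPKM in any column, so its ratios rest on few fragments. In sgNeg, S100A2 reached 1 FPKM only in NCI-H1048 (1.83) and S100A14 only in NCI-H211 (9.01). S100A4 reached it there only in COR-L311 (1.33) and NCI-H526 (8.26). All of these therefore passed the filter through the sgPOU2F3 columns, so the count and the median lean toward higher genes.

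S100A10, which joins ANXA2 in a heterotetramer, went from 11.04 to 18.6 FPKM in NCI-H1048, 8.61 to 95.0 in NCI-H211 and 9.59 to 15.0 in NCI-H526. In COR-L311 it was 0.0954 and listed at 0. The mean log2 ratio was 1.12 ± 1.51 (SD, n = 4 lines; limma adjusted p = 0.46). ANXA2 and S100A10 were thus both higher in NCI-H1048 and NCI-H211, while in NCI-H526 ANXA2 was lower and S100A10 higher. Over the parental lines the 2 genes had r = 0.39. S100A11, a partner of ANXA1, was not tested: it was at most 0.249 FPKM in COR-L311, NCI-H1048 and NCI-H211 sgNeg, went to 3.89 in NCI-H211 with the POU2F3 guides, and went from 82.6 to 1058 in NCI-H526, where ANXA1 went from 17.0 to 9.55.

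Plasminogen activation, the surface reaction that ANXA2 with S100A10 is known to promote, had 4 of 8 genes tested, with a median log2 ratio of 0.33. PLAU, the urokinase that activates plasminogen, went from 5.32 to 21.6 FPKM in NCI-H1048, 0.0885 to 25.4 in NCI-H211, 0.578 to 6.73 in NCI-H526 and 0.928 to 0.542 in COR-L311 (mean log2 ratio 2.10 ± 2.02, SD, n = 4 lines; limma adjusted p = 0.40). In sgNeg, PLAU reached 1 FPKM only in NCI-H1048. It thus entered the test, and the median of its list, through the sgPOU2F3 columns. Its receptor PLAUR had a mean of 0.10 (adjusted p = 0.73), PLGRKT of 0.44 (adjusted p = 0.45) and SERPINE2 of 0.21 (adjusted p = 0.72), all by limma. PLG itself was listed at 0 in 8 of 8 columns.

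**Figure D5:**
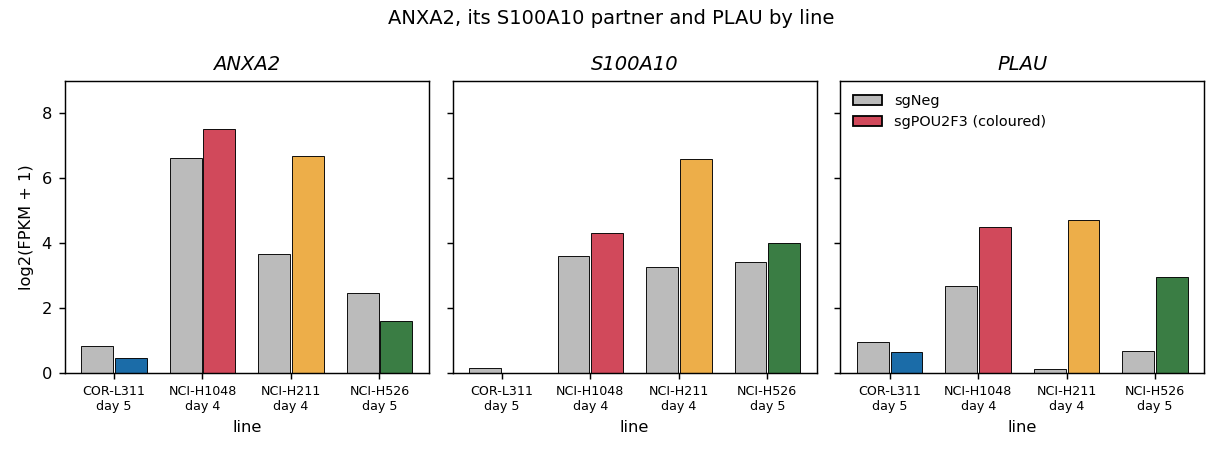
Log2(FPKM + 1) of ANXA2, its partner S100A10 and the plasminogen activator PLAU, with sgNeg in grey and sgPOU2F3 in colour, 1 bar per line and arm. All 3 are higher with the POU2F3 guides in NCI-H1048 and NCI-H211, while in NCI-H526 ANXA2 is lower and the other 2 are higher.

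The formyl peptide receptors through which released ANXA1 acts were near 0 in these cells: FPR1 was at most 0.0452 FPKM, FPR2 was listed at 0 and FPR3 was at most 0.402 in the 8 knockout columns. Across the 14 parental lines none of the 3 exceeded 0.133 FPKM. ANXA1 was first described as an inhibitor of phospholipase A2, and 3 of 4 phospholipase A2 genes were tested. PLA2G4A, which releases arachidonic acid from membranes, went from 62.7 to 31.1 FPKM in COR-L311, 33.9 to 6.69 in NCI-H1048, 22.9 to 2.65 in NCI-H211 and 236 to 102 in NCI-H526 (mean log2 ratio -1.77 ± 0.81, SD, n = 4 lines; limma adjusted p = 0.31). PLA2G4A and ANXA1 were therefore both lower in 4 of 4 lines, as were 12.9% of all genes tested. In the parental lines PLA2G4A was 32.7 to 127.5 FPKM in the 4 lines and 0 to 11.6 in the 10 others (log2 difference 5.38, SE 0.60, limma adjusted p = 0.00019). It reached 1 FPKM in 4 of 4 knockout lines and 1 of 10 others. It thus passed the filter only through the group where it was high. PLA2G6 and PLA2G4B had mean log2 ratios of -0.28 and 0.07 in the knockout comparison (limma adjusted p = 0.55 and 0.84).

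Membrane repair genes, such as the ferlins, the calpains and the ESCRT-III machinery, had 12 of 20 tested, with a median log2 ratio of 0.10. The smallest p belonged to AHNAK, a giant scaffold that binds S100A10 and ANXA2, with 8.53 and 32.9 FPKM in the arms of NCI-H211 and 119.6 and 98.4 in those of NCI-H526 (mean 0.75 ± 0.88, SD, n = 4 lines; limma adjusted p = 0.43). CHMP4B and SMPD1 were higher in 4 of 4 lines, by means of 0.18 and 0.27, and VPS4A lower in 4 of 4, by a mean of -0.15 (limma adjusted p = 0.49, 0.51 and 0.58). Of all genes tested, 9.81% were higher and 12.9% lower in 4 of 4 lines. The penta-EF-hand proteins and ALG-2 partners that bind ANXA7 and ANXA11 had 7 of 7 tested, with a median of -0.01. PDCD6 (ALG-2) had a mean log2 ratio of -0.06 and SRI of -0.10 (limma adjusted p = 0.83 and 0.78), with levels between 69.7 and 193 FPKM for PDCD6 and 19.1 and 50.1 for SRI. The flippases and scramblases that set how much phosphatidylserine, the lipid bound by ANXA5, faces outward had 11 of 12 tested, with a median of -0.03. ATP11A and ATP8A1 were lower in 4 of 4 lines by means of -0.11 and -0.14 (limma adjusted p = 0.64 and 0.65), beside the same 12.9% of all genes. In the parental comparison ANO6, a scramblase, had the smallest p of that list, with a log2 difference of 0.73 (SE 0.36, limma adjusted p = 0.60).

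The tables held 4 further symbols starting with ANXA. ANXA9, an annexin that binds calcium poorly, was 5.90 and 5.47 FPKM in COR-L311, 2.85 and 2.51 in NCI-H211 and 6.76 and 7.74 in NCI-H526, without and with the POU2F3 guides, and at most 0.0922 in NCI-H1048 (mean log2 ratio 0.0003, limma adjusted p = 0.999). ANXA2R, named as a receptor for ANXA2, was at most 4.74 FPKM (mean log2 ratio -0.04, limma adjusted p = 0.92). ANXA8 and ANXA8L1, near-identical copies whose reads cannot be told apart with certainty, were at most 0.0453 FPKM in any knockout column and 0.0197 in any parental line.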

How the data were processed

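RNA was measured in 26 polyA libraries, read here from 5 tables in which the authors deposited FPKM per gene, 4 for the knockout lines and 1 for the 14 parental lines. Per the submitters' processing notes, TopHat2, Cufflinks and Cuffdiff were used with the build hg19; versions, annotation and the scaling between columns are not given in the sources used here. For the parental lines the labels say RPKM and the table's name FPKM. Both POU2F3 guides of a line are combined in 1 deposited value, so fits on each guide could not be run.

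Values were taken as log2(FPKM + 1), with a pseudocount of 1, for genes that reached 1 FPKM in 4 or more columns; a ratio on this scale understates changes of low genes. limma 3.58.1 in R 4.3.3 (trend in the variance, two-sided) was fitted to all genes: line and arm over 8 columns (3 residual degrees of freedom), 4 against 10 parental lines (12), and day 5 against day 4 ratios (2). P-values were Benjamini-Hochberg adjusted over all genes tested, with a threshold of 0.05, and the fits were tested on simulated data. They measure the spread between lines, each 1 culture. Other settings were a pseudocount of 0.1, no filter or one at FPKM 5, no trend, quantile normalization, median centring, each line left out, and exact permutation of 4 against 10 lines.

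The members and gene lists were chosen with earlier results of these data known, and the motifs likewise. Named genes are the members and other ANXA symbols, the 3 genes nearest each member over the parental lines, up to 4 genes with the smallest p of each list and those past the threshold, S100A10, S100A11, the FPR genes, PDCD6, SRI, POU2F3 and YAP1; some genes that the rule takes, TFG and GCA among them, are not reported here, and the marker genes LYZ, PTPRC, HBB, LUM, COL3A1 and DCN were added after their values were seen. Depth was estimated from steps between FPKM values, with GENCODE lengths on another build (GRCh38), and is approximate. Promoter windows come from RefSeq (GRCh38.p14), a different build from the tables, and are used as sequence only; no gene coordinates were taken from it for the measurements. ANXA13 has no window here.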

Additional observations from a re-analysis of the deposited data

Results flagged for a closer look

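Among 28 groups of values screened for 1 line far from the rest, 4 were flagged. Chance flags about 1 in 20 groups of continuous values. That rate does not hold for groups listed mostly at or near 0, as for ANXA10 and ANXA13. The log2 knockout ratio of ANXA3 in NCI-H211 was 2.83, far above the other 3 lines (-0.10 to 0.08). The log2 knockout ratio of ANXA4 in NCI-H211 was -1.73, far below the other 3 lines (-0.70 to -0.59). ANXA10 was 0.065 on the log2(FPKM + 1) scale in parental NCI-H69 and listed at 0 in the 9 other lines of its group. With these at 0, any value above 0 would have been flagged. ANXA13 was 1.31 on the same scale in parental NCI-H211, beside 0 to 0.0727 FPKM in the other knockout lines. The ANXA2 ratio differed between the day 5 and the day 4 lines, with a day 5 minus day 4 difference of -2.58. Both day 4 lines were higher and both day 5 lines lower with the POU2F3 guides. That difference did not pass adjustment over all genes (limma adjusted p = 0.83). Each line was harvested on 1 day, so day and line cannot be told apart.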

How the results depend on the processing

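Each knockout fit paired sgNeg with sgPOU2F3 within a line, through a term for the line. No paired analysis by guide number was possible because the deposited knockout tables combine the 2 guides of a line in 1 column, so the guide number could not be used as a replicate block; the fits on each guide alone were not run for the same reason. Across the settings run, the count of members called after knockout was 0 in each, 0 to 0 with 1 line left out. Leaving out 1 line at a time moved ANXA2 between -0.11 and 1.18 and ANXA3 between -0.020 and 0.96, the negative values being those without NCI-H211, moved ANXA11 between 0.07 and 0.44, and moved the median of the 8 members between -0.063 and 0.36. ANXA7 was 0.010 after quantile normalization. At 1.5-fold, 14 member and line pairs were counted in place of 5, and no all-gene share is given at this cut-off. For the harvest days, leaving out 1 line leaves the other line of that day alone, so no members are counted from those fits. In the parental comparison, the count of 1 member became 0 with no filter (limma adjusted p = 0.055 for ANXA4) and 0 with a pseudocount of 0.1 (0.053), and 0 to 1 with 1 line left out. By exact two-sided permutation of the lines on 1 member at a time, 3 members had an unadjusted p under 0.05: ANXA4 (exact p = 0.0020), ANXA1 (0.0090) and ANXA3 (0.022). The permutation was not run over all genes, so this count has no all-gene share beside it. With 1 line left out, the parental log2 differences ran from 3.56 to 6.15 for ANXA1, -3.06 to -0.93 for ANXA2, 1.497 to 3.16 for ANXA3, 3.02 to 3.92 for ANXA4, -1.81 to -0.38 for ANXA5, -2.69 to -0.69 for ANXA6, -0.048 to 0.20 for ANXA7 and -0.42 to 0.045 for ANXA11. ANXA6 after knockout and ANXA3 in the parental lines had too few values for the filter at FPKM 5. The depth limits ANXA10, ANXA13, the formyl peptide receptors and ANXA2 in COR-L311, which rest on few fragments.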
